A study of Mus musculus with 8 samples.

Results

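Footpad skin of Dicer conditional knockout embryos was compared with that of wild-type embryos at E16.5, late in gestation, on 4 of the 8 arrays of the series. Probes were taken into the comparison where the footpad channel was well above background on both arrays of at least 1 of the 2 E16.5 groups. Of the 42006 probes on the array, 28879 passed (68.7%) and 28696 had a value in both groups and were tested. The knockout group (KO; Dicer cKO in the labels) and the wild-type group (WT) each had 2 arrays, all of embryos on the C57BL6 strain background, and each array held RNA of footpads pooled from 3 to 5 embryos. The same groups were also collected at E17.5, on a second slide. Nothing in the sources used here gives the Cre line that deleted Dicer, the cells in which it acts, the sex of the embryos or whether the wild-type embryos were littermates of the knockouts.

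Dicer is the enzyme that cuts hairpin precursor RNAs into mature microRNAs. A mature microRNA, bound by an Argonaute protein, pairs through its seed, the bases near its 5′ end, with sites in messenger RNAs, and most often lowers the stability or translation of those messengers. Loss of Dicer is therefore known to raise transcripts that carry sites for abundant microRNAs, and to change many others indirectly. The footpads are hairless skin in which the mouse forms its eccrine sweat glands, which grow down from the epidermis as buds in late gestation, and the series' title places its question in sweat gland development after this induction.

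Each array carried footpad RNA in Cy3 and a universal mouse reference RNA in Cy5, with no dye swap. The value used throughout is M, the footpad signal over the reference signal as a log2 ratio, and a difference is the mean M of KO minus that of WT, given ± its standard error (SE). A probe was called at an adjusted p under 0.05 in limma's moderated test, with p-values adjusted over all probes tested by the Benjamini-Hochberg method. Between 67.7% and 72.0% of probes were well above background on the 4 E16.5 arrays. Pearson's r of M across 28022 probes was 0.990 for the KO pair and 0.991 for the WT pair, and 0.985 to 0.987 between KO and WT arrays. The 4 arrays lay on 1 slide, KO at positions 1 and 2 and WT at positions 3 and 4, so genotype and position cannot be told apart. The number of arrays limits the precision. The deposited files give probes by identifier and sequence with no gene name, so the members are described as probes, and Dicer1 and the markers of skin cell types were not analysed here. In whole footpads, fewer cells of a type and less RNA per cell cannot be told apart.

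The 7 called probes with differences beyond -2 and the 2 beyond 2 on the log2 scale are shown by sequence. Z00051493-1 is added as the largest called rise measured in both groups. The sequences allow the transcripts to be looked up. The first 30 of the 60 bases are given, 5′ to 3′ as in the scanner files, with no base singled out. The first 6 lines are lower and the last 3 higher in KO.
Z00070655-1 and Z00054665-1: tttagcaaatccagttgccattgctttatg
Z00008117-1: ccccaactctatgatatgtgcttgtttagt
Z00072740-1: actcgcctttagctatttgcagaaatgtta
Z00074008-1: ccgtgcatttgctgagttgcttatgttcac
Z00022648-1: ggttgggtcttgttagcatttctgaaacaa
Z00048632-1: gtacaatattttcccaggatagttaacaag
Z00035539-1: ggaaatatgcagcgtctatgtttccataag
Z00034451-1: acatctacttctccatttaataactagctt
Z00051493-1: ttaggcatcttttggtcacatgaacaagag

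In KO footpads at E16.5, 81 probes were called lower and 31 higher, and the largest differences among them were falls. Of all probes tested, 112 (0.39%) were called by limma, with 0.282% lower and 0.108% higher. The median difference of the lower probes was -0.76 and that of the higher probes 0.53 on the log2 scale, or 1.69-fold and 1.44-fold, against a median of 0.01 over all probes tested. Among the probes called lower, 21 differed by over 2-fold, and 3 of those called higher did. Over all probes tested, called or not, 95 were over 2-fold lower in KO and 71 over 2-fold higher. Most called changes were smaller. Of the probes called lower, 34 lay between 1.5-fold and 2-fold and 26 under 1.5-fold, and of those called higher 9 and 19 did. The KO arrays did not overlap the WT arrays for any of the 112 called probes, as was so for 53.7% of all probes measured on the 4 arrays. The smallest adjusted p was 0.0255, and 5257 probes had an unadjusted p under 0.05.

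The 112 calls were made with all 8 arrays of the series, and the spread of each probe was estimated over both stages. Why fewer probes were called in the fits that follow was not tested. No probe was called by limma without any 1 of the 4 E16.5 arrays, without either WT E17.5 array or with the 4 E16.5 arrays alone, where 4799 probes had an unadjusted p under 0.05 and the smallest adjusted p was 0.129. Without 1 array the count at an unadjusted p under 0.05 was 3035 to 5101 in the fits with no call. None was called either when dim probes were kept in the test (41802 probes, 5032 at an unadjusted p under 0.05, smallest limma adjusted p 0.0985). Without either KO E17.5 array 5 probes were called, all lower in KO, and these were Z00008117-1, Z00022648-1, Z00072740-1, Z00063770-1 and Z00038833-1. The sign of the difference could not change in these fits, because the KO and WT arrays did not overlap for any of the 112.

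Of the called probes, 7 lower and 2 higher were not well above background in 1 of the groups. They passed the filter through the group where they were high alone, so their test was tilted towards a difference in advance. Their SE and adjusted p rest partly on signals not well above background, and are no support for a difference. The steepest falls came from a pair of probes that carry the same 60 bases. Z00070655-1 had an M of -0.62 and -0.07 on the KO arrays and 3.68 and 4.13 on the WT arrays. Z00054665-1 read -0.34 and -0.61 in KO and 3.14 and 4.24 in WT. Both were well above background on the 2 WT arrays and not on either KO array, so the KO value is only a bound. The differences were -4.25 ± 0.37 and -4.17 ± 0.38 (SE, 2 arrays in each group; limma adjusted p = 0.0331 for each). Set against the lowest signal well above background, WT was at least 3.26-fold and at least 4.00-fold higher. These bounds come from the Cy3 channel after both channels were scaled together, and without a dye swap they are open to dye bias. The reference channel was not well above background for this pair on any E16.5 array, and read 0.89 and 0.30 higher on the log2 scale in KO.

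Among called probes with a measured signal in both genotypes, the largest difference belonged to Z00008117-1. It read -0.93 and -1.35 in KO and 2.67 and 3.12 in WT, a difference of -4.04 ± 0.33 or 16.4-fold (limma adjusted p = 0.0320). Its Cy3 signal alone differed by -4.01 and its reference signal by 0.03. Z00022648-1 followed with -1.11 and -1.02 in KO against 1.70 and 1.86 in WT, a difference of -2.85 ± 0.28 (7.19-fold, limma adjusted p = 0.0355). The KO arrays of both probes thus lay more than 2 units of M below their WT arrays. Z00023072-1 stood at 0.14 and -0.25 in KO and at 1.55 and 1.79 in WT, a difference of -1.73 ± 0.16 (limma adjusted p = 0.0333). Z00055820-1 read 1.11 and 0.82 in KO and 2.50 and 2.68 in WT, a difference of -1.63 ± 0.12 (limma adjusted p = 0.0320). Apart from Z00070655-1, Z00054665-1, Z00035539-1 and Z00034451-1, the probes described here were chosen after their values were seen.

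For 5 further probes the fall ended below the detection limit in KO. Z00072740-1 read -1.93 and -1.86 in KO and 1.08 and 1.48 in WT, and WT was at least 1.52-fold higher. Its Cy3 signal was a replacement value on 2 of the E16.5 arrays. Z00074008-1, at -5.09 and -5.98 in KO and -2.81 and -2.30 in WT, was at least 2.77-fold higher in WT. Z00048632-1 read 2.15 and 2.10 in KO and 4.63 and 5.15 in WT, at least 3.30-fold higher in WT. Its reference signal was not well above background on any E16.5 array, and its ratio there rests on replacement values in Cy5. In each of these 3, as in every probe called lower, both WT arrays lay above both KO arrays. The arrays did not overlap for 53.7% of all probes. Z00022485-1 and Z00031547-1 had smaller fitted differences, of -1.62 ± 0.18 and -1.11 ± 0.08, and bounds of at least 2.10-fold and at least 1.36-fold. All 5 were called by limma, with adjusted p from 0.0276 (Z00048632-1) to 0.0439 (Z00022485-1). As they passed the filter through WT alone, these calls are no support for a difference.

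The 5 probes with the smallest adjusted p in limma, 0.0255 for each, were lower in KO by 1.81-fold to 2.68-fold. Z00038833-1 read -0.70 on each KO array and 0.52 and 0.61 on the WT arrays, a difference of -1.26 ± 0.07. Z00063770-1 read -0.30 and -0.32 in KO and 0.93 and 1.03 in WT, a difference of -1.29 ± 0.06. Z00049277-1 read 0.56 and 0.50 in KO and 1.48 and 1.51 in WT, a difference of -0.96 ± 0.05. Z00036563-1 read -1.89 and -2.04 in KO and -0.61 and -0.48 in WT, a difference of -1.42 ± 0.09. Z00003956-1 read -2.31 and -2.33 in KO and -1.44 and -1.50 in WT, a difference of -0.85 ± 0.05.

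Among the 31 probes called higher in KO, both that rose most were not well above background in WT. Z00035539-1 had an M of 3.55 and 3.33 in KO and 0.75 and 0.50 in WT (2.82 ± 0.24, limma adjusted p = 0.0327), and KO was at least 1.28-fold higher. Its reference signal was not well above background on any E16.5 array, and the ratio therefore rests on replacement values in Cy5. Z00034451-1 read -0.01 and 0.59 in KO and -2.62 and -2.37 in WT (2.78 ± 0.21, limma adjusted p = 0.0320), and KO was at least 1.78-fold higher. Its Cy3 signal was a replacement value on 1 of the E16.5 arrays. For both the bound was far smaller than the fitted ratio.

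Among probes called higher, those with a measured signal in both genotypes reached 2.02-fold at most. Z00051493-1 read 0.35 and 0.05 in KO and -0.77 and -0.86 in WT, a difference of 1.01 ± 0.10 (limma adjusted p = 0.0359). Z00026158-1 stood at 1.76 and 1.61 in KO and at 0.90 and 0.65 in WT, a difference of 0.91 ± 0.11 (limma adjusted p = 0.0498, and 0.0517 with each array centred on its median). Z00002737-1, dimmer than the reference in both groups, read -2.11 and -1.95 in KO and -2.87 and -2.98 in WT, a difference of 0.90 ± 0.07 (limma adjusted p = 0.0320). Z00052090-1 read -0.59 and -0.66 in KO and -1.48 and -1.27 in WT, a difference of 0.75 ± 0.08 (limma adjusted p = 0.0439). Among called falls measured in both groups 14 passed 2-fold, and among such called rises 1 did. Over all probes tested, called or not, 95 were over 2-fold lower and 71 over 2-fold higher.

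The size of the largest differences changed with the processing of the signals, of which background handling was 1 part. With normexp background correction (offset 50) and loess in place of the processed signals, 27 probes were followed one by one, and the difference shrank by 3.65 to 9.97 times for the 9 of them not well above background in 1 group. It became -0.77 for Z00070655-1, -0.88 for Z00054665-1, 0.31 for Z00035539-1 and 0.28 for Z00034451-1. Of the other 18 followed, 8 shrank by over 1.5 times, among them Z00008117-1 (to -2.37), Z00022648-1 (to -1.33), Z00023072-1 (to -0.74), Z00055820-1 (to -0.98), Z00026158-1 (to 0.59) and Z00051493-1 (to 0.65). Z00038833-1 (-1.23) and Z00049277-1 (-0.90) kept nearly their full difference. Of the 27, the call was lost in this setting for Z00072740-1, Z00048632-1, Z00035539-1 and Z00067088-1, with limma adjusted p of 0.0628, 0.0792, 0.0559 and 0.161. The same setting called 867 probes, of which 103 were among the 112. Background correction, offset, input signals and normalization changed together in it, and the part of each was not tested.

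The reference channel, which held the same RNA on every array, showed what differed where no genotype entered. In Cy5 alone the signals were quantile normalized between arrays, unlike the ratios behind the 112 calls, so the counts are not measured alike. There 1 probe (0.00348%) was called by limma between the arrays of KO and those of WT, with 1001 at an unadjusted p under 0.05, and it was none of the 112. This count rose to 117 without KO E16.5 replicate 1, to 7 without WT E16.5 replicate 2, to 6 without KO E16.5 replicate 2 and to 2 without WT E16.5 replicate 1, and it was 0 without either WT E17.5 array. With both channels scaled together, the median Cy5 difference was -0.01 for the probes called higher and 0.00478 for those called lower. On that scale 99 of the 112 lay within the range of the 5th to 95th percentile of all probes (-0.17 to 0.16). In Cy3 alone all 31 higher and 81 lower probes kept their sign, and 91 of the 112 kept their call. Of the 27 probes followed one by one, Z00031547-1 and Z00067088-1 lost it (limma adjusted p = 0.0681 and 0.702).

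For 3 called probes the reference signal differed by more than the footpad signal did. Z00067088-1 was -0.14 in Cy3 and 0.31 in Cy5, Z00059190-1 was -0.22 in Cy3 and 0.25 in Cy5, and Z00026792-1 was 0.24 in Cy3 and -0.30 in Cy5, each as KO minus WT on the log2 scale. In Z00077569-1 both channels were lower on the KO arrays, by -2.13 in Cy3 and -1.25 in Cy5, and the ratio differed by -0.89 ± 0.08. The part of the reference channel in these 4 calls was not tested.

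The E17.5 arrays, of other embryo pools on another slide, gave a second reading of the same probes. There 2690 of 28700 probes were called by limma (9.37%), 4.22% higher and 5.15% lower in KO. Of the 112 probes called at E16.5, 110 had the same sign at E17.5, against 65.9% of all probes. At E17.5, 77 of the 81 lower probes were called lower and 24 of the 31 higher probes were called higher, which makes 101 probes in common, 90.2% of the E16.5 calls and 3.75% of the E17.5 calls. Of these 101, 6 were not well above background in 1 genotype at E17.5 and 1, Z00035539-1, in either. The KO and WT arrays at E17.5 did not overlap, in the same direction as at E16.5, for 79 of the lower and 30 of the higher probes, where 58.7% of all probes did not overlap in either direction. The median E17.5 difference was -0.73 for the lower and 0.61 for the higher probes, and 47 lower and 16 higher probes differed by more at E17.5 than at E16.5. Since the fit shares its spread between the stages, the calls at both are not fully separate. With the 4 E17.5 arrays alone no probe was called, and 108 of the 112 had an unadjusted limma p under 0.05 with the same sign, where 23.9% of all probes tested had such a p in either direction. These p-values are not a separate check either. The spread of the E17.5 arrays had entered the choice of the 112, which favoured probes with a small spread there. The E17.5 count also moved with single arrays, from 2690 down to between 123 (without WT E17.5 replicate 1) and 1426 (without either KO E16.5 array).

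All 7 called probes with a difference beyond -2 at E16.5 were called lower again at E17.5 by limma. Their adjusted p there ran from 0.00632 (Z00048632-1) to 0.0189 (Z00072740-1). Both genotypes were measured there for 3 of them. Z00008117-1 read 0.30 and -0.61 in KO against 4.61 and 4.77 in WT, a difference of -4.85 ± 0.33. Z00022648-1 read 0.44 and -0.48 in KO and 4.37 and 4.35 in WT (-4.37 ± 0.28), and Z00048632-1 read 4.58 and 4.35 in KO and 7.83 and 7.91 in WT (-3.41 ± 0.18). In these 3 both KO arrays lay below both WT arrays. At E17.5 the arrays did not overlap, in either direction, for 58.7% of all probes.

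The other 4 were not well above background on either KO array at E17.5, so their KO values are again only bounds. Z00070655-1 read 0.33 and -0.49 in KO and 4.46 and 5.07 in WT, and WT was at least 5.997-fold higher, while its identical partner Z00054665-1 was at least 6.58-fold higher in WT. Z00074008-1 was at least 3.42-fold higher in WT, and its fitted difference was -3.95 ± 0.32. Z00072740-1, well above background on 1 of the 2 WT arrays alone, had a smaller fitted difference than at E16.5, -1.97 ± 0.27, and no bound above 1. Z00022485-1, at -1.62 on the E16.5 arrays, read -1.18 and -1.55 in KO, not well above background, and 2.39 and 2.40 in WT, at least 11.8-fold higher. Among the rises measured in both groups, Z00051493-1 differed by 1.66 ± 0.10 at E17.5, Z00026158-1 by 1.47 ± 0.11, Z00002737-1 by 0.96 ± 0.07 and Z00052090-1 by 0.71 ± 0.08, all called by limma.

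A smaller group had its difference mainly at E16.5. Z00032022-1 read 1.78 and 1.58 in KO and 2.98 and 3.26 in WT at E16.5, and 3.40 and 3.28 against 3.39 and 3.43 at E17.5. The difference was -1.44 ± 0.12 at the first stage and -0.07 ± 0.12 at the second (limma adjusted p = 0.0320 and 0.709). Z00023072-1 went from -1.73 to -0.49 ± 0.16 (limma adjusted p = 0.11 at E17.5), and its KO arrays read 2.66 and 2.60 at E17.5 against 2.99 and 3.25 in WT. Z00034451-1 differed by 0.45 ± 0.21 at E17.5 (limma adjusted p = 0.226), where it was not well above background in either genotype. The difference between the stages was itself tested, and limma called none of 28610 probes, with 3315 at an unadjusted p under 0.05 and a smallest adjusted p of 0.138. For Z00032022-1 this adjusted p was 0.188, for Z00023072-1 0.253 and for Z00034451-1 0.202, so no probe was shown to respond at E16.5 alone. With normexp and loess 65 probes passed this test and with Cy3 alone 7.

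Some probes share bases with another probe, in part or in full. Of the tested probes, 714 pairs were identical or matched by the end of 1 and the start of the other. The match was of at least 15 bases in sense direction, and bases shared elsewhere were not counted. The median gap between their differences was 0.09 for the 16 identical pairs and 0.04 for the 698 overlapping pairs. In 3 pairs at least 1 probe was called, including the identical Z00070655-1 and Z00054665-1. Both probes had the same sign in all 3. Neither the gap nor the share of equal signs was worked out for unrelated pairs. Over all probes tested the median difference was 1.08-fold in either direction, so small gaps are common. An overlapping pair of called probes is shown by the bases at their junction, with the 18 shared bases in capitals, bases 31 to 60 of the first and 1 to 30 of the second.
Z00023485-1: tgtcacttgtttCCCCATGGGGCTCCAACT
Z00075163-1: CCCCATGGGGCTCCAACTtttgccagcttc
Z00023485-1 read -0.66 and -0.65 in KO and -0.11 and -0.14 in WT, and Z00075163-1 read -0.63 and -0.59 in KO and -0.07 and -0.12 in WT. Their differences, -0.53 ± 0.06 and -0.52 ± 0.05, lay within 0.02 of each other, and at E17.5 they were -0.55 ± 0.06 and -0.54 ± 0.05. In the third pair, Z00057782-1 was called lower (-1.05 ± 0.07) while Z00034984-1, which shares 23 bases with it, differed by -0.51 and was not called (limma adjusted p = 0.111).

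Because Dicer makes microRNAs, the probes were also searched for seed matches, the reverse complement of bases 2 to 8 of a mature microRNA. All 15 microRNAs on a list of ones known from skin or common to most tissues were found in RefSeq's table for GRCm38.p6. The probe covers 60 bases of a transcript and the site may lie elsewhere, so a match is a description of these letters, and the search read the sense strand alone. The microRNA with most called rises and the one with most called falls are shown with the seed in capitals.
let-7a-5p: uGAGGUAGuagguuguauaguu
miR-125b-5p: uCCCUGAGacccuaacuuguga

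The let-7 seed match, CTACCTC, stood in 113 of the tested probes (0.394%). Of these, 2 were called higher and none lower, while 0.108% of all probes tested were called higher, and the median difference of the 113 was 0.02 against 0.01 over all probes. Both called probes are shown over 30 bases with the match in capitals.
Z00018218-1: aaaacacactaCTACCTCttaagtcccagt
Z00034228-1: gtttatatttcaataaagctCTACCTCttc
Z00018218-1 read -1.66 and -1.48 in KO and -2.23 on each WT array, a difference of 0.66 ± 0.08 (limma adjusted p = 0.0483). Z00034228-1 read -1.30 and -1.28 in KO and -1.92 and -1.96 in WT, a difference of 0.65 ± 0.05 (limma adjusted p = 0.0320). KO lay above WT on every array for both, where the arrays did not overlap for 53.7% of all probes. At E17.5 both were again called higher, by 0.77 ± 0.08 and 0.43 ± 0.05. Among all 113 probes with this match, 14 were called higher and 3 lower at E17.5, where 4.22% of all probes were called higher and 5.15% lower, and their median was 0.02 against -0.00155 over all probes.

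The miR-125b seed match, CTCAGGG, stood in 137 tested probes (0.477%), with a median difference of -0.05 and 40.9% above 0. The 3 that were called were lower in KO, where 0.282% of all probes tested were called lower. They were Z00054291-1 (-0.96 ± 0.09), Z00013458-1 (-0.73 ± 0.07) and Z00005685-1 (-0.71 ± 0.06), and their E17.5 differences were -1.12, -0.95 and -1.08. The match for miR-30a-5p, TGTTTAC, had the highest median, 0.07, with 71.1% of its 173 probes (0.603% of those tested) above 0, against 51.9% of all probes tested, and none of them was called. For miR-203-3p (CATTTCA) and miR-205-5p (ATGAAGG), microRNAs known from the epidermis, the medians were 0.04 over 196 probes and 0.00114 over 185, with no call. The remaining called probes with a match were Z00003754-1 (0.43 ± 0.05, miR-17-5p, GCACTTT), Z00040305-1 (-0.52 ± 0.06, miR-200b-3p, CAGTATT) and Z00059190-1 (-0.47 ± 0.05, miR-27b-3p, ACTGTGA). Medians of all 15 groups lay between -0.05 and 0.07.

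Base composition and a common 3′ signal are given as descriptions. The median GC content was 38.3% for the 31 probes called higher, 45.0% for the 81 called lower and 45.0% for all tested. The 25th percentile over all tested probes was 38.3%. The polyadenylation hexamer AATAAA, read on the sense strand alone, stood in 4 of the 31 higher probes (12.9%), 6 of the 81 lower (7.41%) and 7.66% of all tested. None of the 112 matched 30 bases of a gene start window of RefSeq's GRCm38.p6 table on either strand, and no match says only that these letters are not in that window.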

How the data were processed

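RNA of 8 embryo pools was hybridised to 2-colour Agilent arrays. Agilent Feature Extraction (9.5.1.1, per the file headers) turned the scans into intensities, and the deposited processed intensity is background-subtracted and dye-normalized. The authors' series matrix holds log10 values, which matched the log10 ratio of the processed intensities plus a constant for each probe to within 0.000193 on 24641 probes (column medians 2.23 to 2.24). What that constant stands for is not given in the sources used here.

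M was log2 of processed Cy3 over Cy5. Control spots (1417 of 43451) and spots marked non-uniform in either dye (269 to 364 on an E16.5 array) were left out, spots of 1 probe averaged, and 1 mean per group fitted over 8 arrays in limma 3.58.1 under R 4.3.3 (4 residual degrees of freedom). The labels call the arrays biological replicates. Probes and lists were chosen with earlier results of these data known. No reference transcripts or proteins were used here, so the planned naming by gene, the gene lists and the cell type markers could not be applied. The rule for named probes then left the 2 largest rises and 2 largest falls, and all others were added after their values were seen. The fit was tested on simulated data. Alternatives covered marked spots, normexp with loess, centring, the filter on dim probes, the arrays in the fit, the prior, array weights, Cy3 alone, the series matrix, a replicate block and leaving out arrays. For the reference channel, leaving out arrays was added after seeing the data.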

Additional observations from a re-analysis of the deposited data

Results flagged for a closer look

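A pair of probes called at E16.5 had KO on the other side of WT at E17.5 on every array. Z00067088-1 read -0.00025 and -0.04 in KO and 0.42 and 0.44 in WT at E16.5, and 0.64 on each KO array against 0.37 and 0.35 in WT at E17.5. Its difference was -0.45 ± 0.04 at E16.5 and 0.28 ± 0.04 at E17.5, and the stages differed by -0.73 (limma adjusted p = 0.138). At E16.5 its Cy5 reference signal differed by 0.31 and its Cy3 signal by -0.14. Its E16.5 call was lost with Cy3 alone and with normexp and loess (limma adjusted p = 0.702 and 0.161). Z00054727-1 read 0.27 and 0.16 in KO and -0.40 and -0.48 in WT at E16.5, and -0.55 and -0.47 in KO against -0.14 and -0.29 in WT at E17.5. Its difference was 0.65 ± 0.08 at E16.5 and -0.29 ± 0.08 at E17.5 (limma adjusted p = 0.0697 at E17.5), and the stages differed by 0.95 (limma adjusted p = 0.188). Neither difference between stages passed the threshold.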

How the results depend on the processing

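For KO against WT at E16.5, limma called 112 probes as reported, 867 with normexp and loess, 319 with Cy3 alone, 209 with only probes above background in both dyes and 206 with array weights. It called 0 with no filter on dim probes (5032 at an unadjusted p under 0.05), 0 with the E16.5 arrays alone and 0 with the replicate number as a block (3806 at an unadjusted p under 0.05). Leaving out 1 array gave 0 to 5 calls. With marked spots kept, median centring, the trend and robust prior or the series matrix the count was 104 to 119. Each of the 112 kept its sign under each of these alternatives in which it was measured. The sign could not change in fits of the same ratios with other arrays, filters, weights, prior or block. There the KO and WT arrays did not overlap for any of the 112. At E17.5 the 2690 calls became 4274 with normexp and loess, 433 with no filter, 0 with the E17.5 arrays alone, 0 with the replicate block (6851 and 6809 at an unadjusted p under 0.05) and 123 to 1426 without 1 array. The difference between stages, 0 calls as reported, gave 65 with normexp and loess, 7 with Cy3 alone and 0 to 1 without 1 array (1 without KO E17.5 replicate 1). The 1 call in the reference channel became 2 with median centring and 0 to 117 without 1 array. The deviations of same-numbered KO and WT arrays correlated at -0.09 (E16.5) and -0.06 (E17.5). With 2 arrays a group this cannot show whether the replicate numbers pair the samples. Fewer residual degrees of freedom remain in the block and in fits without an array or with 1 stage alone. The causes of the shifts were not tested. Differences of probes near background are limited by signal over background.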
